A study of Mus musculus with 8 samples.

Results

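Macrophages and dendritic cells sense microbes and tissue debris with germline-encoded receptors. Toll-like receptors (TLR) at the cell surface or in endosomes signal through the adaptor MyD88, C-type lectins bind sugars of fungi, bacteria and host glycoproteins, and scavenger receptors take up modified lipoproteins and dying cells. At mucosal surfaces such as the conjunctiva these receptors are part of how resident and recruited myeloid cells distinguish commensals, injury and infection. The expression of 29 such genes, of 754 genes measured, is described here in 8 sorted cell samples. The genes were the rows of the count table whose name begins with Tlr, Clec, Trem, Marco, Msr, Siglec, Nod or Cd209, together with Cd14, Cd36, Mrc1, Stab1 and Myd88. The rule uses gene names alone. Colec12 and genes beginning with Msr were not analysed here.

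The cells were CD11b+ and came from conjunctivae of female C57BL/6J mice, aged 10 weeks per the labels, that had been left non-stressed (NS) or had undergone 5 days of desiccating stress (DS5). Stress consisted of scopolamine in the drinking water, which suppresses tear secretion, and an air draft at low humidity. The 4 populations were MHCII+ cells and MHCII-CD64+ cells that were Ly6C-high, Ly6C-inter or Ly6C-low, and the Ly6C-high cells are called monocytes below. Before the sort, a dump channel was used to exclude lymphocytes, NK cells and granulocytes, with Ly6G as the granulocyte antigen. Each of the 8 samples was a pool from 20 mice, and there was 1 sample per condition, so no p-value is given and the intervals beside ratios cover counting error only. RNA was counted with a NanoString nCounter panel for mouse myeloid innate immunity genes (V2), an assay that binds a color-coded probe pair to each transcript and counts the codes by imaging, without amplification.

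The depth differed strongly between samples. MHCII+ cells had totals over the 754 genes of 39677 (NS) and 30335 (DS5) counts, whereas the totals of the 6 MHCII- samples ranged from 2728 to 14201. A gene was taken as detected when its count exceeded the mean + 2 SD of its sample's 8 negative control probes, a limit that lay between 11.2 and 23.0 counts. Genes at or under that limit made up 4.24% of all counts in NS and 7.42% in DS5 MHCII+ cells, but 79.9% in NS and 64.1% in DS5 monocytes. The labels were checked against marker transcripts. All 5 measured MHC class II and antigen presentation markers were above the limit in both MHCII+ samples and 1 or 2 of the 5 in each MHCII- sample. Of 9 macrophage markers, 9 (NS) and 8 (DS5) were above it in MHCII+ cells and 7 and 7 in Ly6C-inter cells. In Ly6C-low cells 6 (NS) and 5 (DS5) of the 9 were above it, and in monocytes 0 and 1. Fcgr1, which encodes CD64 and is 1 of these 9, was under the limit in all 6 MHCII-CD64+ samples (3 to 9 counts). No measured marker of mast cells, lymphocytes and NK cells, or epithelium, fibroblasts and endothelium was above the limit in any sample, with 5, 2 and 4 markers measured. Of 8 neutrophil markers only S100a9 was, in NS (16 counts) and DS5 (55 counts) Ly6C-inter cells. Of 6 dendritic cell markers, Itgax, Ccr7 and Irf8 were above the limit, in NS MHCII+ cells only, at 12 to 15 counts. The monocyte markers Ly6c1, Chil3 and Ccr2 did not share an order of samples. Ly6c1 had 583 counts in DS5 Ly6C-inter cells and 2 to 16 elsewhere, Chil3 had 70 in DS5 monocytes, 16 in NS monocytes and 3 to 13 elsewhere, and Ccr2 had 202 (NS) and 190 (DS5) in MHCII+ cells, 12 and 15 in monocytes and 1 to 7 elsewhere.

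Before the counts are described, the start regions of 4 of the receptors are shown as a reference for the detection patterns below. Mrc1 and Cd36 were detected in the same 6 samples, Clec7a in MHCII+ cells only, and Siglecf in a single MHCII- sample. The 250 bases upstream of the annotated start are given 5′ to 3′ from RefSeq (GRCm38.p6), at chr2:14229164-14229413 on the plus strand for Mrc1, chr5:17835897-17836146 on the minus strand for Cd36, chr6:129472780-129473029 on the minus strand for Clec7a (the first of 2 starts listed) and chr7:43351091-43351340 on the plus strand for Siglecf. Capitals mark GAGGAA or its reverse complement TTCCTC, the core bound by the myeloid factor PU.1, searched on both strands. These letters occur 3 times for Mrc1, 0 times for Cd36 and once each for Clec7a and Siglecf, and 23.3% of all 32851 windows of this length hold at least 1. A match is a description of the letters and no evidence of binding.
Mrc1: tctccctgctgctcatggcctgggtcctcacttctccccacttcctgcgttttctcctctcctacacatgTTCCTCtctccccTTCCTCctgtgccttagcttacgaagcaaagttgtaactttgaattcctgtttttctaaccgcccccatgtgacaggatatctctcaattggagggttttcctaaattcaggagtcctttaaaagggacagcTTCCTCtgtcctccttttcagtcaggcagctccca
Cd36: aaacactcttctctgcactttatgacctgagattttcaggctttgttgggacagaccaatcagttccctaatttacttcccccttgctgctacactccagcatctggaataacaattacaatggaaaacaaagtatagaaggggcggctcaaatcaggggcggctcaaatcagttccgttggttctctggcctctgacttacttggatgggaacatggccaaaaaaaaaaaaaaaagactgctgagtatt
Clec7a: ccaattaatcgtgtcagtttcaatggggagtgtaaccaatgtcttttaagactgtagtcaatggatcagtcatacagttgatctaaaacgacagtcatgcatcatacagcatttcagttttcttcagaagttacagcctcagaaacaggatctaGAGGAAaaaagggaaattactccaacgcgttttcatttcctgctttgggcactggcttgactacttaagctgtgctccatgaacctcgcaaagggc
Siglecf: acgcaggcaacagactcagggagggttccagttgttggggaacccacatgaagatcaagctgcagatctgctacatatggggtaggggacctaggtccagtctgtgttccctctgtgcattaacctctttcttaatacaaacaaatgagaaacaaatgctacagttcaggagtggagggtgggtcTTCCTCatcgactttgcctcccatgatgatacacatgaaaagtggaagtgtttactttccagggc

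Of the 29 receptor genes, 10 exceeded the limit in at least 1 sample and 19 in none. NS MHCII+ cells had the most, with 9 of 29 (31.0%) above the limit, against 38.6% of all 754 genes. These were Cd14, Tlr2, Tlr8, Tlr9, Myd88, Mrc1, Clec7a, Cd36 and Stab1. In DS5 MHCII+ cells 6 were above it (20.7%, against 28.2% of all genes), namely Cd14, Tlr2, Myd88, Mrc1, Clec7a and Cd36. NS monocytes had no receptor above the limit, where 3.18% of all genes were, and DS5 monocytes had Cd14 alone, where 6.90% of all genes were. Cd14, Mrc1 and Cd36 were above the limit in NS Ly6C-inter cells (14.6% of all genes), DS5 Ly6C-inter cells (13.0%) and DS5 Ly6C-low cells (8.49%). In NS Ly6C-low cells (12.7% of all genes) they were Mrc1, Cd36 and Siglecf. The share of receptors above the limit was lower than that of all genes in 7 of the 8 samples and higher in DS5 Ly6C-low cells, at 10.3%.

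Several receptors lay close to the limit. Cd14 had 15 counts in NS monocytes against a limit of 15.1 and 12 in NS Ly6C-low cells against 15.9, and Tlr9 had 15 in DS5 MHCII+ cells against 15.3. Just above it were Myd88 in DS5 MHCII+ cells (18 against 15.3), Cd14 in DS5 Ly6C-inter cells (27 against 23.0) and Siglecf in NS Ly6C-low cells (20 against 15.9). Detection of these genes in these samples therefore rests on a difference of a few counts.

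Cd14 encodes the co-receptor that hands bacterial lipopolysaccharide to TLR4. In NS samples its counts were 234 (MHCII+), 15 (monocytes), 35 (Ly6C-inter) and 12 (Ly6C-low), and in DS5 samples 189, 23, 27 and 17 in that order. It was the only receptor detected in a monocyte sample, that of DS5. By rank of its count among the 754 genes of a sample, a measure that needs no scaling, Cd14 stood at places 31 and 27 in NS and DS5 MHCII+ cells, 24 in DS5 monocytes, 41 and 77 in NS and DS5 Ly6C-inter cells and 46 in DS5 Ly6C-low cells. In NS monocytes and NS Ly6C-low cells its count was under the limit.

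Tlr2, which senses bacterial lipoproteins as a dimer with TLR1 or TLR6, was detected in MHCII+ cells only. It had 35 counts in NS and 41 in DS5 MHCII+ cells, and 5 to 10 counts in the 6 MHCII- samples, none above the limit. By share of the sample total Tlr2 was not higher throughout in MHCII+ cells, at 0.09% (NS) and 0.14% (DS5). The MHCII- samples, on counts under the limit, were at 0.06% to 0.23%. Its dimer partners Tlr1 (1 to 5 counts) and Tlr6 (1 to 8 counts) stayed under the limit in every sample. The endosomal receptors Tlr9, for unmethylated DNA, and Tlr8 were detected in NS MHCII+ cells alone. Tlr9 had 25 counts there, 15 in DS5 MHCII+ cells and 2 to 12 in MHCII- samples, and Tlr8 had 17, 11 and 2 to 5. Myd88, the adaptor of most TLRs, had 24 counts in NS and 18 in DS5 MHCII+ cells and 2 to 13 in the other samples.

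Mrc1 encodes the macrophage mannose receptor (CD206), an endocytic lectin. Its NS counts were 186 (MHCII+), 6 (monocytes), 43 (Ly6C-inter) and 25 (Ly6C-low), and its DS5 counts 151, 4, 47 and 23. The counts were at background in both monocyte samples and above the limit in all others. Within samples, Mrc1 ranked 35 (NS) and 37 (DS5) in MHCII+ cells, 28 and 50 in Ly6C-inter cells and 51 and 33 in Ly6C-low cells. Clec7a (dectin-1), the receptor for fungal beta-glucan, had 58 counts in NS and 47 in DS5 MHCII+ cells. In the MHCII- samples it had 13 counts in NS monocytes, 7 in DS5 monocytes and 2 to 8 in the other 4, all under the limit.

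Cd36, a class B scavenger receptor for oxidized lipoproteins and fatty acids, had NS counts of 127 (MHCII+), 3 (monocytes), 36 (Ly6C-inter) and 26 (Ly6C-low) and DS5 counts of 72, 5, 38 and 24. The pattern over populations was that of Mrc1, with both monocyte samples at background, and in Ly6C-inter and Ly6C-low cells the NS and DS5 counts differed by only 2 counts. Stab1 (stabilin-1), a scavenger receptor of tissue macrophages, had 19 counts in NS and 11 in DS5 MHCII+ cells and 2 to 10 elsewhere, and was above the limit in NS MHCII+ cells only. Siglecf encodes a sialic acid-binding lectin best known from eosinophils. It had 20 counts in NS Ly6C-low cells, 7 in DS5 Ly6C-low cells, 6 in NS MHCII+ cells and 1 or 2 in the other 5 samples. It was the only detected receptor with its highest raw count outside the MHCII+ samples, which had the highest totals. By share of the sample total, only Cd14 was highest in an MHCII+ sample (0.62% in DS5), and Mrc1 (0.72%) and Cd36 (0.61%) were highest in NS Ly6C-inter cells.

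**Figure D1:**
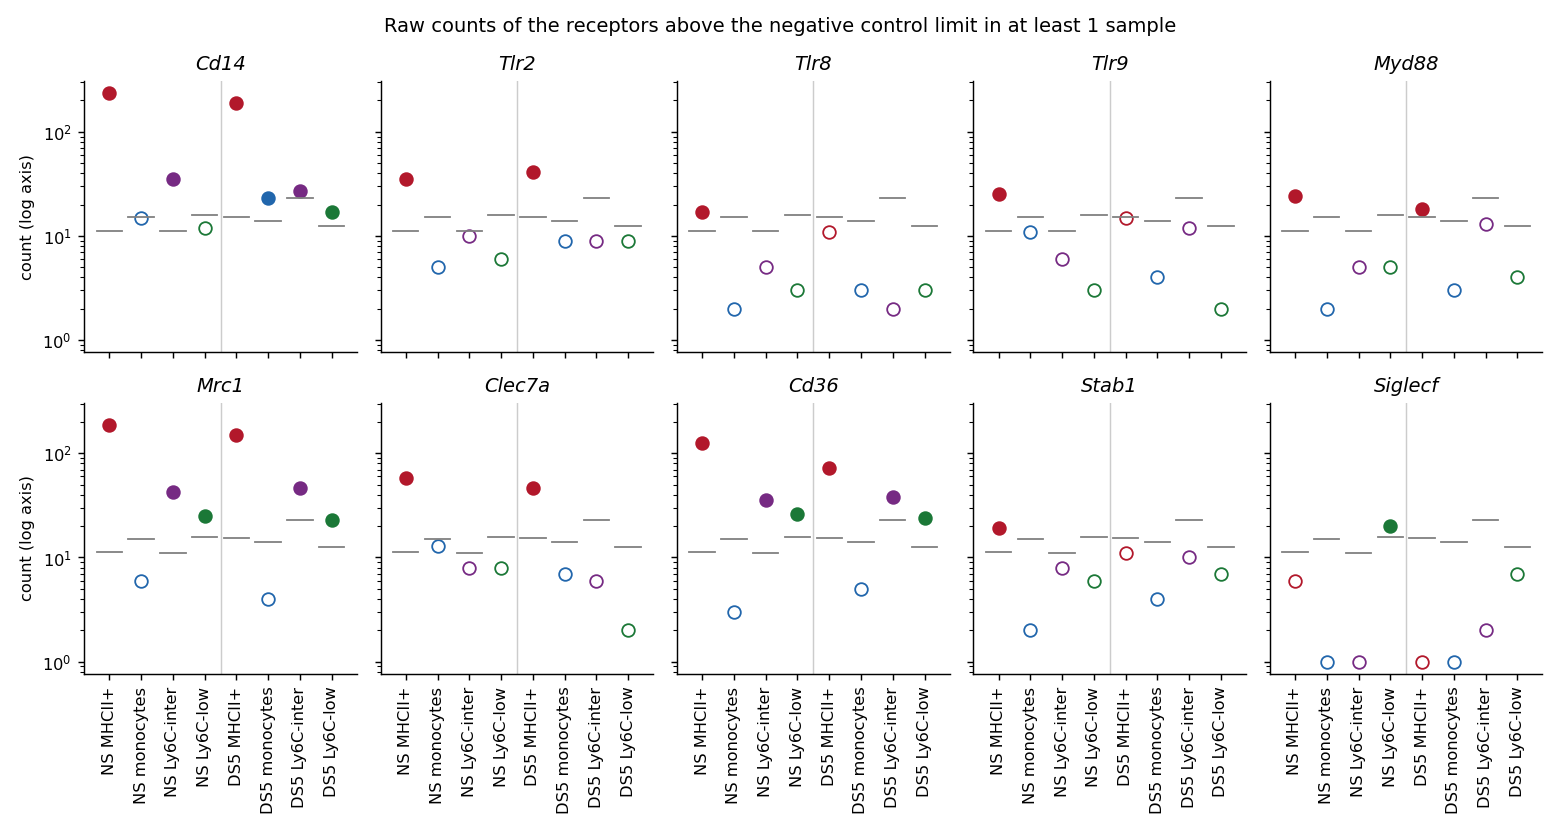
Raw count (log axis) of each of the 10 detected receptor genes in the 8 samples, colored by population, with the negative control limit of each sample as a grey line and filled points above it. Cd14, Mrc1 and Cd36 are filled in most populations, Clec7a and Tlr2 in the MHCII+ samples only, and Siglecf in NS Ly6C-low cells only (20 counts).

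The 19 receptors that were never above the limit had counts between 1 and 13. Among TLRs they were Tlr1, Tlr3, Tlr4, Tlr5, Tlr6, Tlr7, Tlr11, Tlr12 and Tlr13, and among cytosolic sensors of bacterial peptidoglycan Nod1 and Nod2. The lectins were Clec1b, Clec5a, Clec9a, Cd209e and Siglec1, and the remaining genes were the scavenger receptor Marco and the receptors Trem1 and Trem2. The highest single counts were 13 for Tlr4 in DS5 MHCII+ cells (limit 15.3) and 13 for Tlr5 in DS5 Ly6C-inter cells (limit 23.0). Tlr4, the signaling receptor for lipopolysaccharide, had 9 counts in NS MHCII+ cells, so it was not detected in the cells with the highest Cd14 counts. Trem1, an amplifier of inflammatory signaling, had 2 to 9 counts and Trem2, a lipid-sensing receptor of macrophages, 1 to 7.

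In NS MHCII+ cells the median of the 19 genes was 6 counts, above the median of 3 for the negative control probes of that sample. In each of the other 7 samples it was below it, as in DS5 MHCII+ cells with 4 against 4.5 and in NS monocytes with 2 against 8. At this depth a low level of these transcripts could not be told from background, and differences among them are not described further. The sum over the 19 genes was 103 counts in NS and 88 in DS5 MHCII+ cells and 37 to 87 in the MHCII- samples.

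**Figure D2:**
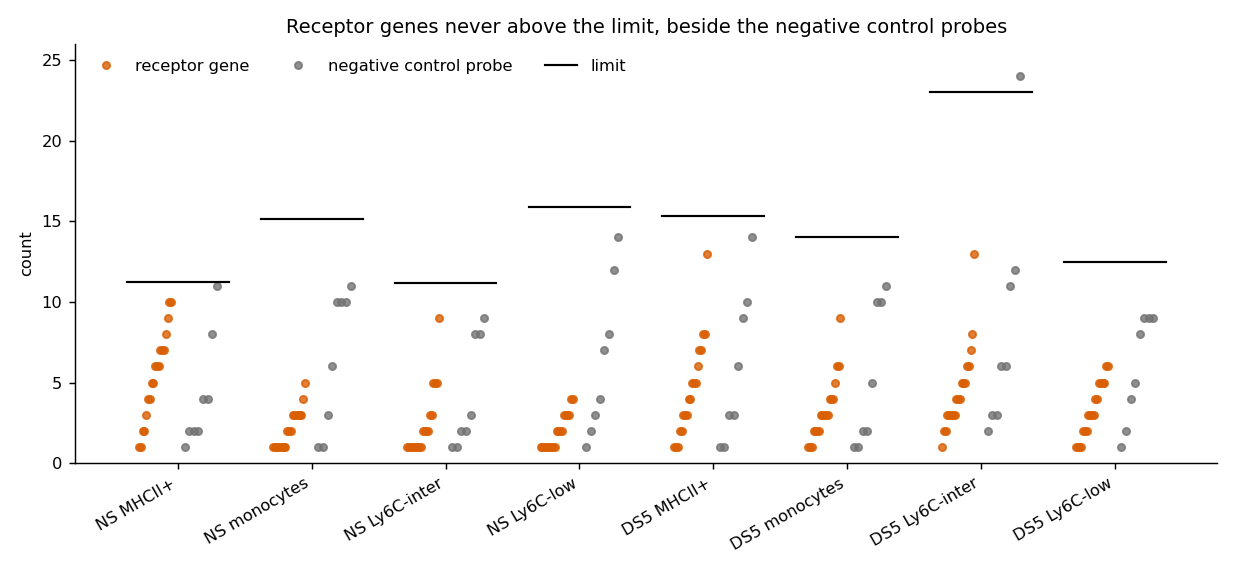
Counts of the 19 receptor genes that were under the limit in all 8 samples (orange) beside the 8 negative control probes (grey) of each sample, with the limit as a black line. The receptor counts, 1 to 13, overlap the negative control counts, 1 to 24, in every sample.

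The effect of desiccating stress was examined as the ratio of DS5 over NS within each population. Counts were scaled to equal totals over the 754 genes, so a ratio compares shares of all counts, and a gene was counted as past the threshold when the log2 ratio was at least 1.5 in either direction and the count was above the limit in the sample where the scaled value was higher. In MHCII+ cells 0 of 29 receptors passed, against 1.06% of all genes. In monocytes 0 passed (0.531% of all genes), as in the Ly6C-low population (1.19%). In Ly6C-inter cells 1 passed (6.90% of all genes). With counts scaled instead to the positive control probes, which are spiked in equally and leave the amount of RNA uncorrected, 0 receptors passed in MHCII+ cells (1.59% of all genes), monocytes (1.33%) and Ly6C-inter cells (4.64%), and 1 passed in Ly6C-low cells (3.85%). The median log2 ratio of the 29 receptors was -0.13, 0.06, -0.67 and 0.74 in MHCII+, monocyte, Ly6C-inter and Ly6C-low samples, and that of all genes was 0.14, -0.16, -0.26 and 0.52.

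Among the 9 receptors detected in MHCII+ cells, the raw DS5 count was lower than the NS count for 8 and higher for Tlr2, with a total that was also lower in DS5. With equal totals Cd14, Mrc1, Clec7a and Tlr2 had ratios above 0 and the other 5 below it. Cd36 went from 127 to 72 counts, a log2 ratio of -0.43 (95% interval -0.87 to -0.00), and from rank 52 to rank 73. With positive controls the ratio was -0.81 (-1.25 to -0.39). It lay between -0.82 and -0.42 under all scalings and settings tried and was under the threshold of 1.5 in each. Tlr2 was at 0.62 (-0.07 to 1.31) with equal totals and 0.23 (-0.45 to 0.93) with positive controls, and the interval included 0 in both.

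Cd14, Mrc1 and Clec7a had similar shares of the counts in NS and DS5 MHCII+ cells. Cd14 was at 0.08 (-0.21 to 0.36), Mrc1 at 0.09 (-0.23 to 0.40) and Clec7a at 0.08 (-0.50 to 0.66) with equal totals. With positive controls all 3 were at about -0.30, and for Cd14 that interval, -0.59 to -0.02, was below 0. The intervals of Myd88 (-0.995 to 0.91), Stab1 (-1.62 to 0.74), Tlr8 (-1.48 to 0.94) and Tlr9 (-1.38 to 0.63) included 0, and a difference of the size seen for Cd36 was not detectable at this depth.

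In Ly6C-inter cells the 3 detected receptors had nearly the same counts in NS and DS5, and their ratios depended on the scaling. With equal totals Cd14 (27 counts in DS5 and 35 in NS) was at -1.63 (-2.41 to -0.86), past the threshold, Cd36 at -1.18 (-1.87 to -0.48) and Mrc1 at -1.13 (-1.76 to -0.50). With positive controls they were at -0.68 (-1.46 to 0.08), -0.23 (-0.93 to 0.47) and -0.18 (-0.81 to 0.45), with 0 inside each interval. The total of the DS5 sample was 14201 counts against 5948 in NS, and the 4 genes with the highest counts in it, Emp1, S100a11, S100a10 and Ly6c1, held 25.4% of it against 2.93% in NS. The neutrophil and monocyte marker S100a9 had 55 counts there against 16 in NS. The part of these genes in the lower receptor shares was not tested beyond leaving out the 10 highest genes of each sample from the totals, an alternative added after the data were seen, which put Cd14 at -1.30.

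In Ly6C-low cells Siglecf had 20 counts in NS and 7 in DS5, a log2 ratio of -0.999 (-2.48 to 0.30) with equal totals and -1.70 (-3.19 to -0.40) with positive controls, the latter past the threshold. Other eosinophil genes were looked up after this count had been seen. Ccr3, the eotaxin receptor, went from 25 counts (NS) to 5 (DS5) in Ly6C-low cells, with 1 to 5 in the other 6 samples, and its ratio passed the threshold at -1.81 (-3.55 to -0.40). The DS5 counts of Siglecf (7) and Ccr3 (5) were under the limit of 12.5, so both ratios were taken against background. Il5ra, Epx and Prg2 had 1 to 6 counts in all samples, under the limit. Of the 5 eosinophil genes, Siglecf, which prompted the lookup, and Ccr3 were thus detected in NS Ly6C-low cells, where 12.7% of all genes were. None of the 5 was detected in any other sample. The summed count of the 5 genes, with the 20 and 7 counts of Siglecf included, was 53 (NS) and 19 (DS5) in Ly6C-low cells and 7 to 18 elsewhere. Whether other cells entered this sort was not tested. Cd14 was at 1.02 (-0.13 to 2.22), Mrc1 at 0.40 (-0.49 to 1.27) and Cd36 at 0.40 (-0.46 to 1.26), each with an interval that included 0. In monocytes the only detected receptor, Cd14, was at 0.09 (-0.91 to 1.13).

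**Figure D3:**
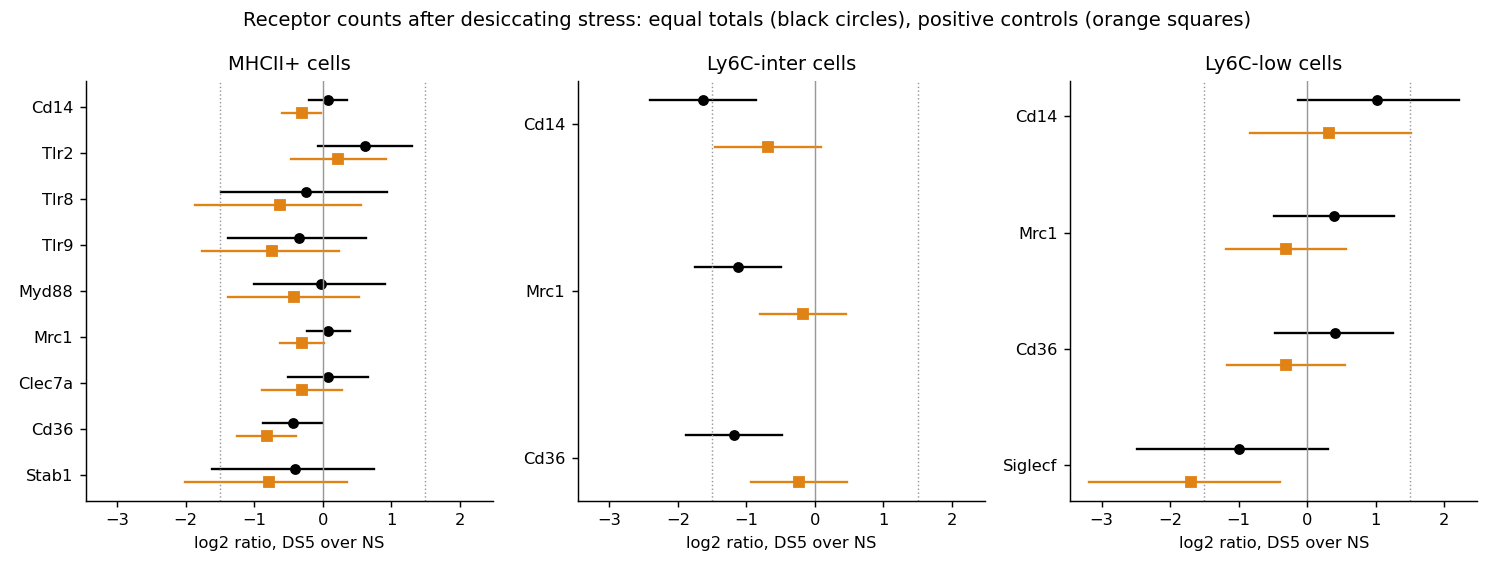
Log2 ratio of DS5 over NS with 95% counting intervals for the receptors detected in at least 1 sample of the pair in 3 populations (in monocytes this was Cd14 alone), with equal totals (black circles) and positive control scaling (orange squares), and dotted lines at the threshold of 1.5. In MHCII+ cells no point passes the threshold and Cd36 is the gene whose interval lies below 0 in both, while in Ly6C-inter cells the ratios near or past it with equal totals shrink with positive controls.

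The populations were compared as MHCII+ cells over each MHCII- population, within NS and within DS5, with a threshold of 2 on the log2 scale. The 3 comparisons of a condition share the MHCII+ sample. Fewer cells and less RNA per cell cannot be told apart in such pools, and the amount of RNA hybridized was not given in the sources used here. Totals in MHCII+ cells were 2.14 to 14.5 times those of the MHCII- sample, and therefore both the share of counts (equal totals) and the count relative to the spiked-in controls are given. With equal totals, the number of receptors past the threshold in NS was 0 against monocytes (2.12% of all genes), 0 against Ly6C-inter cells (3.05%) and 1 against Ly6C-low cells (4.51%). In DS5 it was 1 against monocytes (3.18% of all genes), 0 against Ly6C-inter cells (5.97%) and 0 against Ly6C-low cells (3.18%). With positive controls 8, 5 and 8 receptors passed in NS against monocytes, Ly6C-inter and Ly6C-low cells, where 35.9%, 27.2% and 26.9% of all genes did. In DS5 it was 6, 4 and 5, where 25.7%, 15.8% and 24.8% of all genes did, and all of these receptors were higher in MHCII+ cells. The median log2 ratio of the 29 receptors was below 0 with equal totals in each of the 6 comparisons (-2.36 to -0.51, all genes -2.28 to -1.09) and above 0 with positive controls (0.78 to 2.27, all genes 0.45 to 1.78).

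Mrc1 was the receptor past the threshold against DS5 monocytes. Its 151 and 4 counts gave a log2 ratio of 2.29 (0.90 to 4.18), and 5.53 with positive controls. The 4 counts are under the limit of 14.0, and with both counts raised to the limit of their sample where they were under it the ratio was 0.48. In NS the same ratio, from 186 and 6 counts, was 1.09 (-0.06 to 2.56). Cd36 (127 and 3 counts in NS, 72 and 5 in DS5) was at 1.54 (-0.04 to 3.84) and 0.90 (-0.39 to 2.57). Cd14 had nearly the same share in MHCII+ cells and monocytes, at 0.10 (-0.65 to 0.96) in NS and 0.09 (-0.54 to 0.78) in DS5. Clec7a was under the limit in both monocyte samples (13 and 7 counts), so its ratios of -1.70 (-2.59 to -0.71) in NS and -0.20 (-1.36 to 1.19) in DS5 were taken against background, and the value in NS was 2.35 with positive controls. Tlr9 (25 and 11 counts in NS) was at -2.68 (-3.75 to -1.51) with equal totals and 1.38 with positive controls, and it was not counted as past the threshold because the 11 counts in monocytes were under the limit.

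Against Ly6C-inter and Ly6C-low cells, Cd36 and Mrc1 took a similar or smaller share of the counts of MHCII+ cells, with the exception of Mrc1 in one DS5 comparison. Cd36 was lower in NS MHCII+ cells than in NS Ly6C-inter cells at -0.92 (-1.46 to -0.34), and lower in DS5 MHCII+ cells than in DS5 Ly6C-low cells at -1.32 (-2.002 to -0.59). Mrc1 was at -0.62 (-1.11 to -0.11) against NS Ly6C-inter cells and 0.59 (0.11 to 1.09) against DS5 Ly6C-inter cells. With positive controls these 4 ratios were 1.96, 1.79, 2.26 and 2.14, so the direction of the negative ones turned with the scaling. Cd14 was higher in MHCII+ cells under each scaling against NS Ly6C-low cells, at 1.51 (0.68 to 2.48) with equal totals, and against DS5 Ly6C-inter cells, at 1.71 (1.13 to 2.35).

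In the comparison with DS5 Ly6C-inter cells, Clec7a (47 and 6 counts) was at 1.87 (0.65 to 3.39) and Tlr2 (41 and 9 counts) at 1.09 (0.03 to 2.32). The 6 and 9 counts were under the limit of 23.0, and with counts raised to the limit the ratios were -0.06 and -0.26. In the NS comparison their ratios were 0.12 (-0.95 to 1.398) and -0.93 (-1.98 to 0.25). Siglecf, with its 6 counts in MHCII+ and 20 in Ly6C-low cells of NS mice, was at -4.51 (-6.12 to -3.14) with equal totals and -1.73 (-3.33 to -0.36) with positive controls. It was lower in MHCII+ cells under every scaling tried, which held for no other detected receptor in these 6 comparisons.

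**Figure D4:**
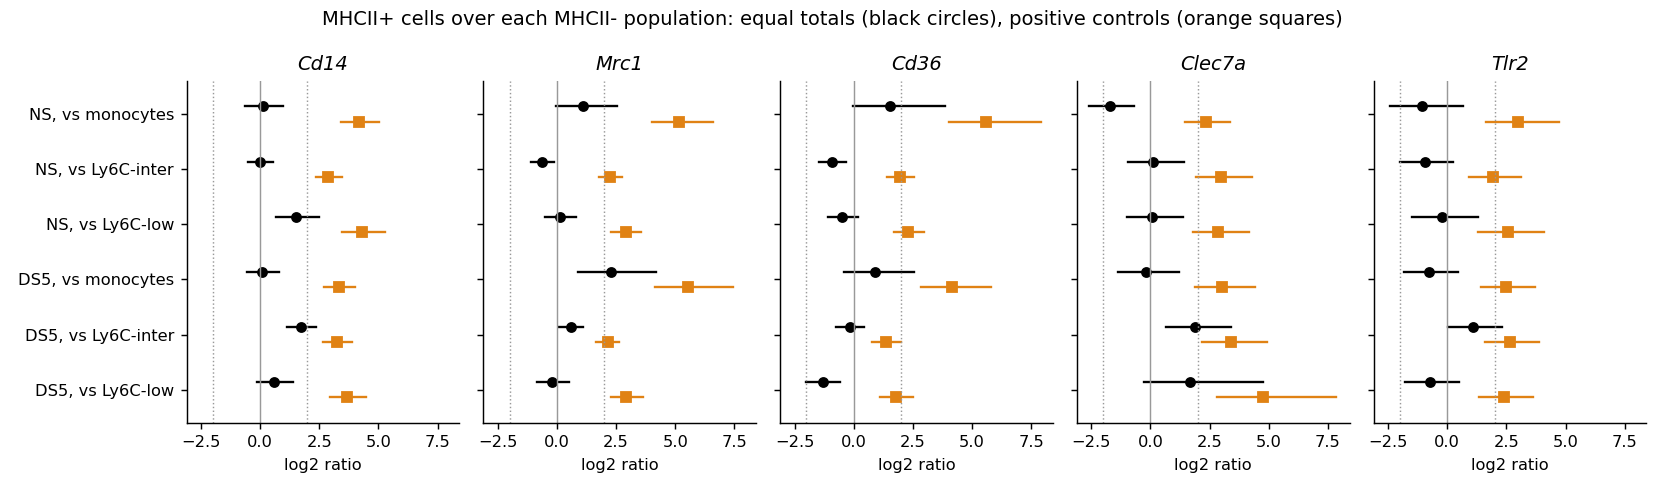
Log2 ratio of MHCII+ cells over each MHCII- population with 95% counting intervals for 5 receptors, with equal totals (black circles) and positive control scaling (orange squares), and dotted lines at the threshold of 2. Orange points lie above 0 throughout, whereas black points lie on both sides of 0, with Mrc1 against DS5 monocytes (2.29) past the threshold.

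To compare populations without any scaling, the count of a receptor was expressed as a percent of its sum with Mrc1 in the same sample, a measure chosen after the counts had been seen. Probes differ in efficiency, so the percent is compared between samples and not read as a ratio of transcripts. Cd14 made up 55.7% (95% interval 50.8 to 60.5, Clopper-Pearson) of Cd14 + Mrc1 counts in NS and 55.6% (50.1 to 60.9) in DS5 MHCII+ cells. It was 85.2% (66.3 to 95.8) in DS5 monocytes and 71.4% (47.8 to 88.7) in NS monocytes. The Mrc1 counts behind these percents, 4 and 6, were under the limit, as were the 15 Cd14 counts of NS monocytes, so the monocyte percents are set against background. In the other MHCII- samples it was lower, from 32.4% (18.0 to 49.8) in NS Ly6C-low cells to 44.9% (33.6 to 56.6) in NS Ly6C-inter cells.

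As odds relative to Mrc1, Cd14 was lower in DS5 MHCII+ cells than in DS5 monocytes, with a log2 odds ratio of -2.20 (-4.22 to -0.60), and higher than in DS5 Ly6C-inter cells at 1.12 (0.33 to 1.93). In NS it was higher in MHCII+ than in Ly6C-low cells at 1.39 (0.30 to 2.56), and the intervals against NS monocytes and NS Ly6C-inter cells included 0. Clec7a relative to Mrc1 was likewise lower in MHCII+ cells than in monocytes, at -2.78 (-4.53 to -1.21) in NS and -2.48 (-4.76 to -0.43) in DS5. The Clec7a counts of both monocyte samples were also under the limit. Cd36 relative to Mrc1 differed between DS5 MHCII+ and DS5 Ly6C-low cells, at -1.13 (-2.12 to -0.14), and the intervals of its other 9 comparisons included 0. For each of Cd14, Cd36 and Clec7a, the interval of DS5 over NS included 0 in all 4 populations, with Cd36 in MHCII+ cells at -0.52 (-1.06 to 0.02).

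**Figure D5:**
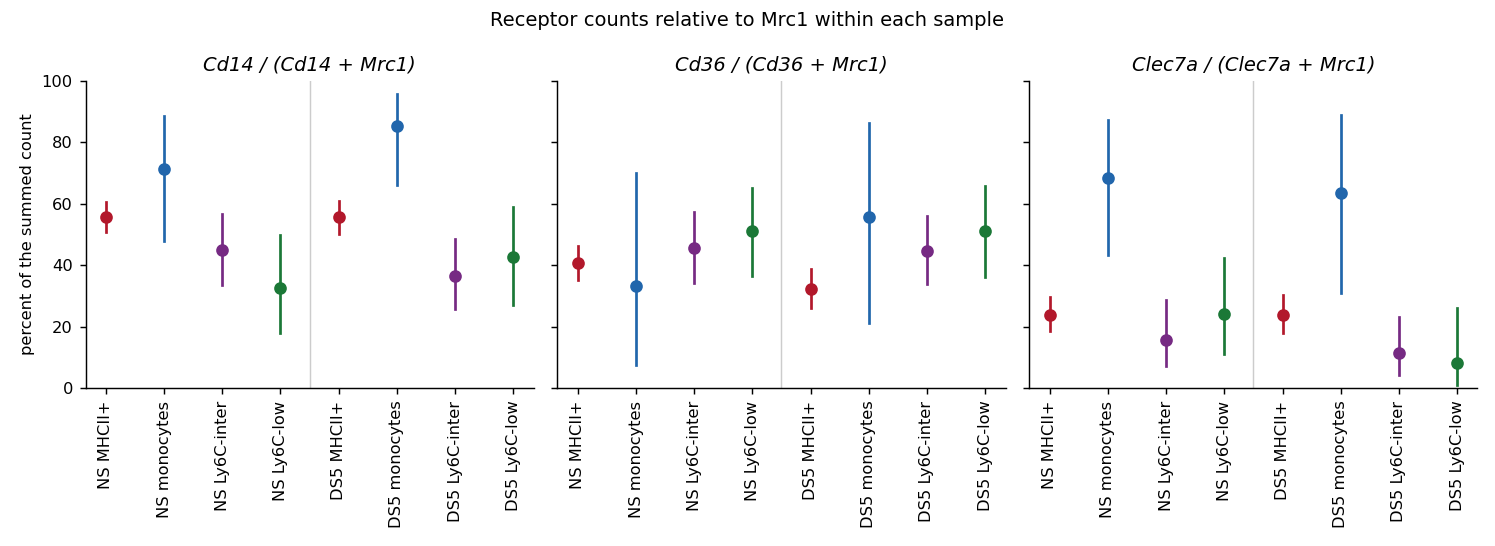
Count of Cd14, Cd36 or Clec7a as a percent of its sum with Mrc1 in each sample, with 95% Clopper-Pearson intervals, colored by population. NS and DS5 MHCII+ cells are at nearly the same percent for Cd14 (55.7% and 55.6%), both monocyte samples lie above them but rest on Mrc1 counts under the limit (4 and 6), and the Ly6C-inter and Ly6C-low samples lie below.

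Genes that act with these receptors were examined from lists. The share of all genes past a threshold is that given above for the same comparison. Of 25 other scavenger and phagocytic receptors, 13 were measured. Above the limit were 11 of them in NS MHCII+ cells (38.6% of all genes) and 8 in DS5 MHCII+ cells (28.2% of all genes). Cd163, the hemoglobin scavenger receptor, had NS counts of 112, 1, 35 and 22 and DS5 counts of 78, 3, 47 and 24, with the populations ordered as above. Like Mrc1 and Cd36 it was at background in both monocyte samples and above the limit in the others. In DS5 over NS, Mertk, a receptor for apoptotic cells, was lower in MHCII+ cells (1 and 15 counts), where 1.06% of all genes passed the threshold. The DS5 count was under its limit of 15.3, so the Mertk ratio was taken against background. The NS count of 15 would be under that DS5 limit too. In Ly6C-inter cells (6.90% of all genes) Itgam was higher (161 and 21 counts). Olr1 (9 and 13), Itgb2 (10 and 15) and Sirpa (15 and 20 counts) were lower there. The DS5 counts of Olr1, Itgb2 and Sirpa were under the limit of 23.0, so their ratios were taken against background. With positive controls these ratios were -0.84, -0.89 and -0.72, under the threshold, and that of Itgam was 2.63. Emp1, S100a11, S100a10 and Ly6c1 held 25.4% of the total of this DS5 sample. In Ly6C-low cells (1.19% of all genes) the inhibitory Fc receptor gene Fcgr2b was higher (34 and 16 counts). Between populations Cd163 (112 and 1 counts) was higher in MHCII+ cells than in NS monocytes, and Fcgr2b (165 and 5 counts) than in DS5 monocytes. Both monocyte counts were under the limit, so these 2 ratios were taken against background. Olr1, the receptor for oxidized LDL, was lower in NS MHCII+ cells (10 counts, under the limit) than in NS Ly6C-inter (13) and NS Ly6C-low cells (39). Itgam was lower in DS5 MHCII+ cells than in DS5 Ly6C-inter cells (75 and 161 counts). With positive controls the Olr1 ratios were -0.24 and -1.95 and the Itgam ratio -0.65, none past the threshold of 2.

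Of 28 adaptors and kinases of receptor signaling, 7 were measured. Above the limit in both MHCII+ samples were 4 of them, Syk, Bcl10, Malt1 and Tyrobp (38.6% of all genes in NS and 28.2% in DS5). Tyrobp, which encodes the adaptor DAP12 of TREM receptors, had 254 counts in NS and 184 in DS5 MHCII+ cells and 26 to 67 in the MHCII- samples, above the limit in all 8. Its lower value in DS5 than in NS Ly6C-inter cells (32 and 61 counts, log2 ratio -2.19, -2.85 to -1.55) was the only one of this list past a threshold. With positive controls this Tyrobp ratio was -1.24, under the threshold of 1.5. Of 13 NF-kB and IRF factors 9 were measured, with Irf1 higher in DS5 Ly6C-inter cells (123 and 17 counts) and Nfkbia and Nfkbiz lower in DS5 Ly6C-low cells (4 and 21, and 8 and 43 counts). The DS5 counts of Nfkbia and Nfkbiz were under the limit of 12.5, so their ratios were taken against background. None of 4 cytosolic sensors measured, of 16 listed, passed a threshold in any comparison.

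All 15 inflammatory target genes were measured, and 11 were above the limit in NS (38.6% of all genes) and 10 in DS5 MHCII+ cells (28.2%). Between DS5 and NS MHCII+ cells none of them passed the threshold, where 1.06% of all genes did. Their median log2 ratio was 0.26, against 0.14 for all genes. With equal totals Il1b (11 and 25 counts) and Ccl2 (152 and 182 counts) were lower in DS5 than in NS Ly6C-inter cells. With positive controls their ratios were -1.49 and -0.57, under the threshold of 1.5. The 11 counts of Il1b were under the limit of 23.0. Between populations, Il6 (47 and 1 counts) and Il1a (27 and 1 counts) were higher and Tnf lower in MHCII+ cells than in NS Ly6C-inter cells. The interval of Il1a, -0.58 to 7.37, included 0. In DS5 MHCII+ cells Ccl2 (369 and 11 counts) was higher than in monocytes. Il1b (290 and 11) and Cxcl10 (42 and 4) were higher than in Ly6C-inter cells, and Il6 (62 and 1) than in Ly6C-low cells. In all of these population comparisons except that of Tnf the MHCII- count was under the limit, so the ratio was taken against background. Tnf had 28 and 19 counts, and its log2 ratio of -2.18 with equal totals was 0.70 with positive controls. The other genes named from the lists kept their direction with positive controls, but several were then under the threshold. In DS5 over NS these were Olr1, Itgb2, Sirpa, Tyrobp, Il1b and Ccl2 in Ly6C-inter cells and Fcgr2b in Ly6C-low cells (0.90). Between populations they were the Olr1 and Itgam ratios.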

How the data were processed

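The authors deposited raw counts per probe for 8 pooled samples, whole numbers of at least 1, for 754 genes, 8 negative and 6 positive control probes; a value of 1 can stand for a smaller one. Per the paper's methods, barcodes were counted with the nCounter Digital Analyzer and quality was checked in nSolver, and the normalization of its heat maps was not given in the sources used here. Samples were grouped by their cell type label, with 1 sample per group and no test between groups.

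Counts were scaled to equal totals over the 754 genes. Ratios of scaled counts were given on the log2 scale with a 95% Clopper-Pearson interval taken from the share of one count in the sum of the pair, which covers counting error only. The thresholds, 1.5 between DS5 and NS and 2 between populations, are those used in the study. A receptor was named with its ratio where at least 1 count of the pair was above the negative control limit of its sample (mean + 2 SD), and genes of other lists where they also passed the threshold. The members and lists were chosen with earlier results of these data known, and the eosinophil genes and the percent relative to Mrc1 after their counts had been seen. All 29 receptor names matched a RefSeq symbol. Alternatives were other scalings (none, positive controls, reference genes, Ppia and Rpl19), other limits and thresholds, and counts raised to the limit. The interval code was tested on simulated data. Computations used scipy 1.17.1, numpy 2.4.6 and pandas 2.3.3 under Python 3.11.15, and plots matplotlib 3.10.9.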

Additional observations from a re-analysis of the deposited data

How the results depend on the processing

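Counts of receptors past a threshold changed most with the scaling between samples of unequal depth. In the order NS against monocytes and Ly6C-low cells, then DS5 against monocytes, Ly6C-inter and Ly6C-low cells, the numbers of receptors past the threshold in MHCII+ cells over MHCII- cells were 8, 8, 6, 3 and 5 without scaling, 8, 8, 6, 4 and 5 with positive controls and 2, 2, 2, 2 and 1 with 19 reference genes. Of all genes, 35.4%, 26.9%, 24.5%, 11.9% and 23.2% passed without scaling, 35.9%, 26.9%, 25.7%, 15.8% and 24.8% with positive controls and 10.7%, 5.04%, 7.43%, 6.63% and 6.90% with reference genes. Against NS Ly6C-inter cells they were 5 without scaling (25.9% of all genes) and 5 with positive controls (27.2%). Leaving the 10 highest genes out of the totals was an alternative added after the data were seen. It gave 1 against NS monocytes (5.2% of all genes), 2 against NS Ly6C-low (4.9%), 1 against DS5 Ly6C-inter (6.1%) and 1 against DS5 Ly6C-low cells (4.8%). A threshold of 1 gave 2, 2, 3 and 2 in the same order, where 7.8%, 11.9%, 13.4% and 7.8% of all genes passed. With counts raised to the limit, 0 passed against DS5 monocytes (1.59% of all genes). For DS5 over NS in Ly6C-inter cells, 0 passed without scaling, with positive controls, reference genes, Ppia and Rpl19, or without the 10 highest genes. Of all genes 5.17%, 4.64%, 5.57%, 4.64% and 5.44% passed in these settings. With a threshold of 1, 3 receptors passed (11.3% of all genes). In Ly6C-low cells 1 passed without scaling (2.39% of all genes), with positive controls (3.85%) and with reference genes (2.92%), which was Siglecf, lower. With a threshold of 1, Cd14 passed there, higher (2.79% of all genes). Counting receptors at or under the limit too gave 4 (MHCII+), 3 (monocytes), 6 (Ly6C-inter) and 7 (Ly6C-low) for DS5 over NS, where 11.01%, 20.7%, 21.2% and 27.5% of all genes passed. For MHCII+ cells over the MHCII- populations in this order it gave 14, 6 and 5 in NS, then 16, 6 and 15 in DS5, with 35.0% to 54.0% of all genes. With the highest negative control probe as the limit, 2 receptors (Cd14 and Clec7a) and 39 of all 754 genes were above it in NS monocytes. With a limit pooled over all samples 1 receptor and 28 of all genes were. Of 567 alternative values of 63 receptor ratios, 417 lay within the counting interval or, for ranks, kept the direction, and no ratio past a threshold with equal totals changed sign. Ratios past the threshold with positive controls could have the other sign with equal totals, as for Clec7a in NS MHCII+ cells over monocytes (2.35 and -1.70). Over all genes, 16 were past the threshold in NS MHCII+ cells over monocytes with equal totals, 267 without scaling, 271 with positive controls and 81 with reference genes, and DS5 over NS gave 9 in Ly6C-low cells with equal totals and 29 with positive controls. The causes of these shifts, other than the scaling itself, were not tested.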
